A study of Mus musculus with 12 samples.

Results

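The genes described here encode the extracellular matrix of the spleen, the receptors of the fibroblast-like cells that lay it down, and the contractile proteins of the smooth muscle in its capsule, trabeculae and vessels. They were chosen by mouse gene symbol, as 44 named collagens, basement membrane genes, matrix glycoproteins, proteoglycans, receptors and contractile genes, of which 43 were found among the 18221 genes of the 12 spleen tables. Of these 43, 34 were matrix or mesenchymal genes and 9 were contractile genes. A level of at least 1 RPKM in at least 3 mice was reached by 40 of them (32 matrix or mesenchymal and 8 contractile). Lama5, Tnc and Lmod1 stayed under that limit, with highest values of 0.980, 0.890 and 1.19 RPKM in any mouse, and Thy1os was not analysed here.

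RNA was sequenced from the spleens of male ICR mice, an outbred stock, with 3 mice in each of 4 groups. The Con-sa mice received saline only. The B-sa mice received a single injection of busulfan, an alkylating chemotherapy drug, at 40 mg per kg body weight at 3 weeks of age, followed by saline. The B+Con-FMT and B+A10-FMT mice received the same injection of busulfan and then, once daily by mouth for 2 weeks, a transplant of small intestinal content (fecal microbiota transplantation, FMT) pooled from control donors or from donors given 10 mg per kg of alginate oligosaccharide (AOS). All mice were sampled at 8 weeks of age, and since each transplant was a pool of donors, the recipients of a group are not replicates of the donor treatment.

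The matrix of the spleen is built in layers. Fibrillar collagens of types I, III and V form the cables of the capsule, trabeculae and reticular fibres, while collagen VI, collagen XIV and small proteoglycans such as decorin sit on or between those cables. Basement membranes underlie endothelium and wrap smooth muscle cells. They consist of a collagen IV network and a laminin network, which are joined by nidogens and perlecan. The smooth muscle of the capsule, trabeculae and arteries uses its own isoforms of actin and myosin, with transgelin, calponin and desmin.

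Depth, estimated from the steps between the lowest values, was 13200000 to 14100000 reads per mouse, and the sum of RPKM was 677033 to 772157, with 23.3% to 32.4% of it from globin genes. Spleen markers were present in every mouse, since the B cell receptor gene Cd79a measured 530 to 745 RPKM and the red pulp macrophage gene Spic 44.6 to 81.0 RPKM. Of 5 B cell markers, 4 fell in B-sa relative to Con-sa (median log2 fold change -0.32 over the 5), and of 5 T cell markers 2 rose in B+Con-FMT relative to B-sa and 3 relative to Con-sa (medians 0.44 and 0.40). Markers of neighbouring tissue varied by mouse. Summed over 12 pancreatic acinar genes, the level was 463 to 3269 RPKM in the B-sa mice, 1300 to 7133 in Con-sa, 7947 to 12862 in B+Con-FMT, and 434, 750 and 9277 in the B+A10-FMT mice. The beta-globin gene Hbb-bs was at 9.20 to 30.5 RPKM in the 3 B-sa mice and at 36.4 in B+Con-FMT mouse 1, against 4024 to 45902 RPKM in the other 8 mice, and whether the mice carry different beta-globin haplotypes was not tested. The part of these differences in the results below was not tested.

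Each gene was compared between groups with limma on log2(RPKM + 1), all 12 mice in 1 fit, and was called at a Benjamini-Hochberg adjusted p under 0.05 over the 12671 genes tested. In all, 17 of the 40 tested members were called in at least 1 of 6 comparisons, 16 of them matrix or mesenchymal genes and 1 a contractile gene. Of all 12671 genes, 24.9% were called in at least 1 comparison. No member was called in B+Con-FMT against B-sa or in B+A10-FMT against Con-sa. Every called difference gave an exact two-sided permutation p of 0.1, the smallest that 3 mice against 3 can give.

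**Figure D1:**
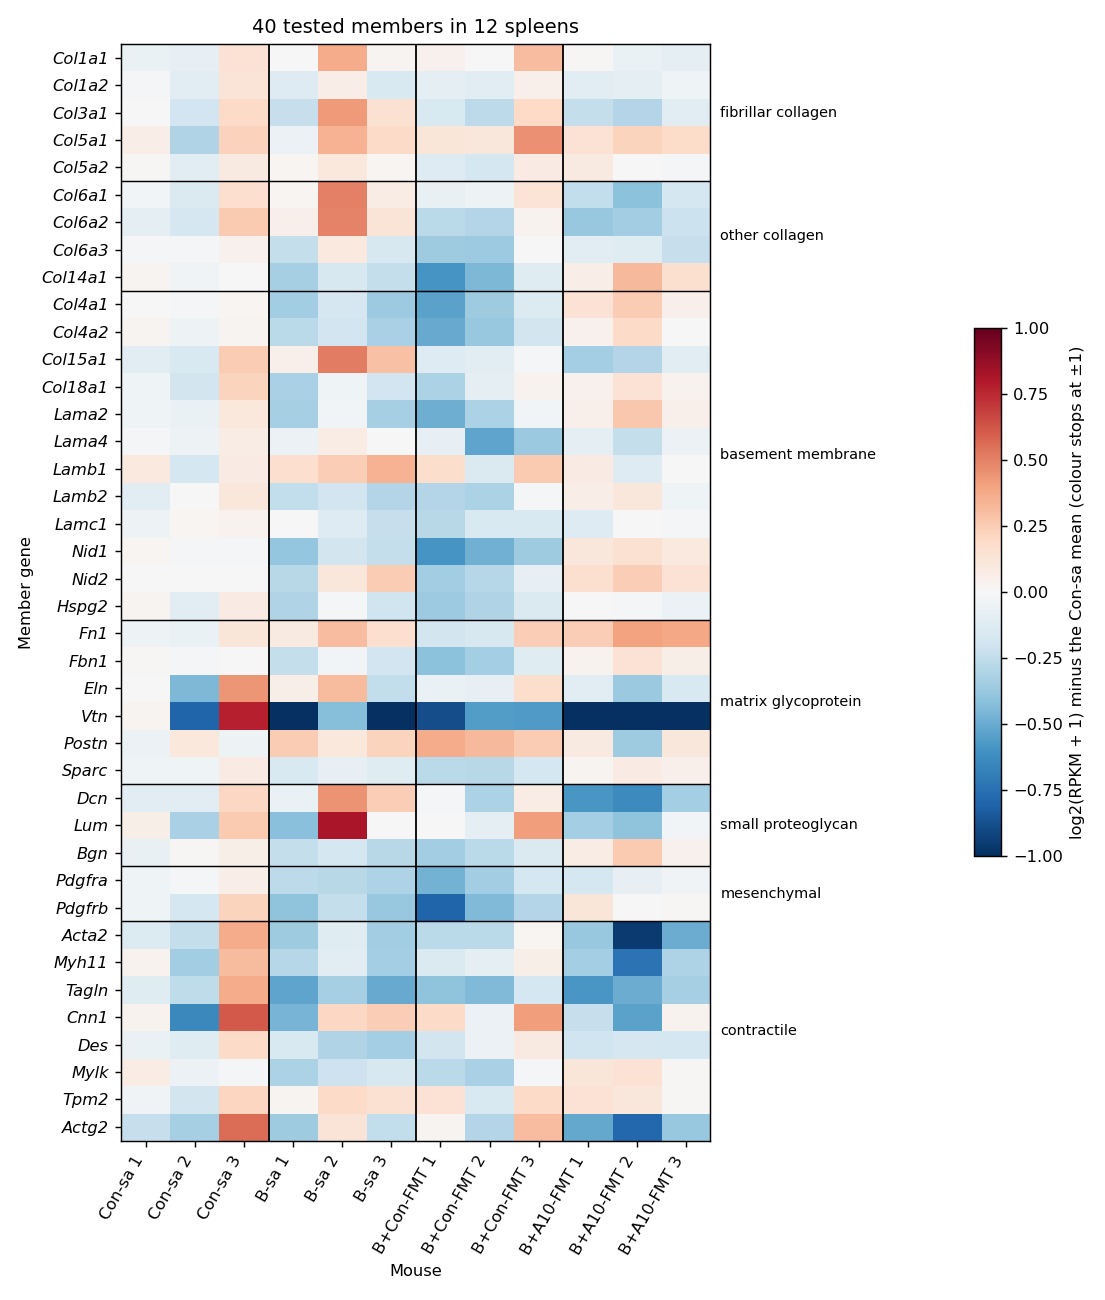
Heat map of the 40 tested members (rows, in their gene groups) in the 12 mice (columns), coloured by log2(RPKM + 1) minus the mean of the 3 Con-sa mice, with the colour scale ending at 1 in either direction. Col4a1, Col4a2 and Nid1 are below the Con-sa mean in all B-sa and B+Con-FMT mice and above it in most B+A10-FMT mice, as is the contractile gene Mylk, while Acta2 and Tagln are below it in all B+A10-FMT mice.

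After busulfan, 5 matrix members fell in B-sa relative to Con-sa and none rose. The 5 were Col4a1, Col4a2 and Nid1 of the basement membrane, Bgn and Pdgfra. Of all genes tested, 9.78% were called lower and 4.73% higher in this comparison, so that 15.6% of the 32 tested matrix members were called against those shares. Under median-of-ratios scaling of the mice, 54.4% of all calls were higher in place of 32.6%, and 2 of the 5 members kept a call. The median log2 fold change of the matrix members was -0.09, beside -0.044 for all genes, and that of the contractile members was -0.24, with none of the 8 called in limma and 3 at an unadjusted p under 0.05. Leaving out 1 mouse left 0 matrix members called without Con-sa mouse 1 or Con-sa mouse 3, and 1 without Con-sa mouse 2 (Vtn, not among the 5) or without B-sa mouse 1, 2 or 3. Over all genes, 1838 were called, and 832, 796 and 942 without Con-sa mouse 1, 2 or 3 and 2100, 510 and 1355 without B-sa mouse 1, 2 or 3.

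In B+Con-FMT against Con-sa, the comparison of the mice that received busulfan and the control transplant with mice given saline only, 8 matrix members fell and none rose. These were Col4a1, Col4a2, Nid1, Bgn, Sparc, Col14a1, Pdgfra and Pdgfrb. The share of all genes called lower was 6.57%, and 2.30% were called higher. Calls that were higher made up 26.0% of all calls, 50.1% under median-of-ratios scaling and 10.8% with equal totals outside the globin genes, and the lower matrix members numbered 5 and 11 under these scalings. The median log2 fold change was -0.20 over matrix members and -0.06 over contractile members, beside -0.041 over all genes. Without Con-sa mouse 1, 2 or 3 there were 2, 4 and 1 matrix members called, and without B+Con-FMT mouse 1, 2 or 3 there were 2, 1 and 9. In the same order, the genes called in the whole table went from 1124 to 337, 399, 665, 393, 532 and 603. No contractile member was called in limma, with 2 at an unadjusted p under 0.05.

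Transplantation from AOS-dosed donors was compared with saline after busulfan in B+A10-FMT against B-sa. Here 5 matrix members rose (Col4a1, Col4a2, Nid1, Bgn and Col14a1), 4 fell (Col6a1, Col6a2, Col15a1 and Dcn), and 1 contractile member, Mylk, rose. Of these, Col15a1 passed the filter only through the B-sa mice, where it was highest. The shares of all genes called were 4.0% higher and 1.27% lower. Among all calls 75.9% were higher, and 44.2% under median-of-ratios scaling, where 3 matrix members were called higher and 4 lower. Without B+A10-FMT mouse 1, 2 or 3, the called matrix members numbered 2, 0 and 5, and without B-sa mouse 1, 2 or 3 they numbered 8, 3 and 2. The whole table had 668 called genes, and 273, 106, 347, 833, 141 and 469 in these fits. Since members moved both ways, the median log2 fold change of the matrix members was 0.05, against 0.046 over all genes.

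By counts of called genes, the B+A10-FMT group differed most from B+Con-FMT, the group that received the same procedure with control content. Relative to B+Con-FMT, 10 matrix members rose: Col4a1, Col4a2, Nid1, Nid2, Col14a1, Fn1, Fbn1, Sparc, Bgn and Pdgfrb. Postn was the single matrix member that fell, and Mylk rose. Over all genes, 7.58% were called higher and 2.78% lower. Higher calls were 73.2% of all calls, 45.1% under median-of-ratios scaling, with 8 matrix members higher and 1 lower, and 89.8% with equal totals outside the globin genes, with 14 higher and 0 lower. The matrix median was 0.17, beside 0.046 for all genes, and the contractile median was -0.27, while that of B+A10-FMT against Con-sa was -0.35. Without B+A10-FMT mouse 1, 2 or 3, the called matrix members numbered 10, 5 and 8, and without B+Con-FMT mouse 1, 2 or 3 they numbered 6, 7 and 13. Genes called in the whole table numbered 1312 with all mice and 969, 222, 797, 305, 490 and 1159 in these fits. Nid1, Bgn, Col4a2, Col14a1 and Sparc were called with any 1 of these 6 mice left out.

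Few genes were called in the remaining comparisons. In B+A10-FMT against Con-sa, 0.118% of all genes were called higher and 0.292% lower, and limma called 0 of the 32 matrix and 0 of the 8 contractile members, with 5 and 4 of them at an unadjusted p under 0.05. The 52 genes called there became 15, 31 and 13 without Con-sa mouse 1, 2 or 3, and 1, 12 and 49 without B+A10-FMT mouse 1, 2 or 3. In B+Con-FMT against B-sa, the shares were 0.623% and 0.221%, and 0 members were called, with 6 matrix members and 1 contractile member at an unadjusted p under 0.05. Higher calls were 73.8% of all calls there and 37.2% with equal totals outside the globin genes. The 107 genes called there became 24, 35 and 125 without B+Con-FMT mouse 1, 2 or 3, and 468, 19 and 56 without B-sa mouse 1, 2 or 3. Without B-sa mouse 1, higher calls were 51.7% of all calls. The comparisons share groups of mice, and their values are therefore given side by side. B-sa against Con-sa and B+A10-FMT against B+Con-FMT have no mouse in common, and 4 genes, Col4a1, Col4a2, Nid1 and Bgn, were called lower in the first and higher in the second, out of 5 and 11 members so called. Over all tested genes 243 were, which is 19.6% of the 1239 called lower in the first and 25.3% of the 960 called higher in the second. Both comparisons come from the same fit and share the estimate of spread of each gene, so their calls are not independent.

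**Figure D2:**
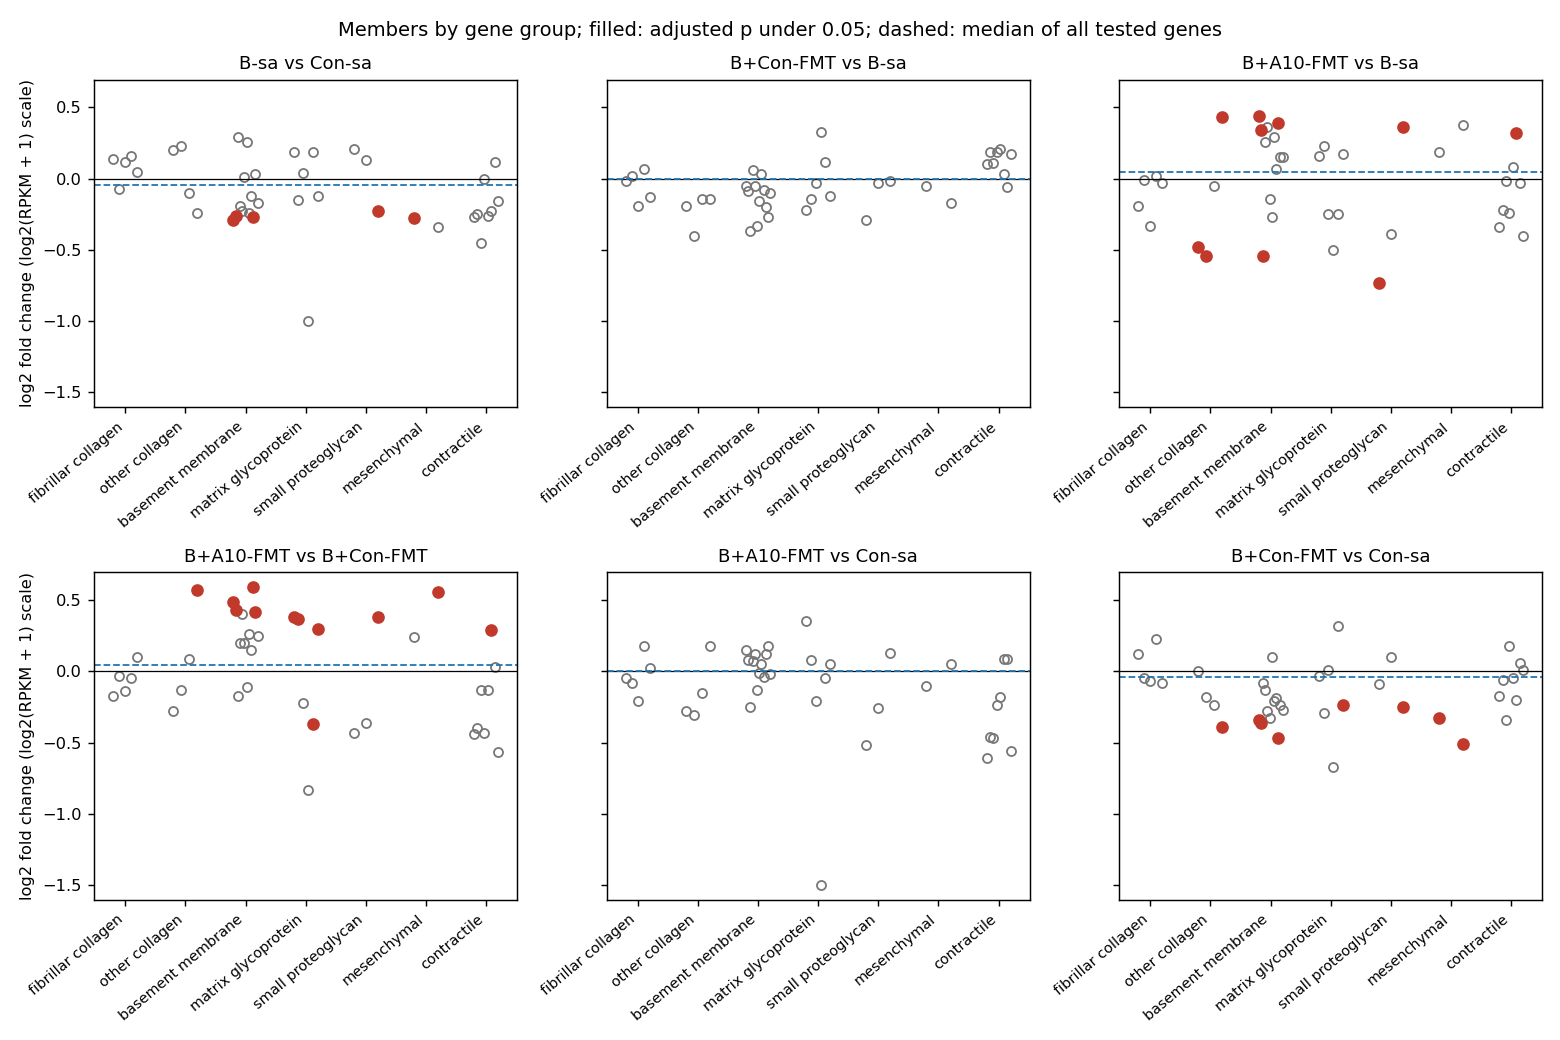
Log2 fold change on the log2(RPKM + 1) scale (vertical axis) of each tested member by gene group (horizontal axis) in the 6 comparisons, with members at an adjusted p under 0.05 filled and the median of all tested genes dashed. Basement membrane genes are called lower in the first and last panels and mostly higher in B+A10-FMT against B-sa and against B+Con-FMT, none is called in B+A10-FMT against Con-sa, and fibrillar collagens hold no filled point in any panel.

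Of the 12 tested basement membrane genes, 5 were called in at least 1 comparison. Nid1 (chr13:13437602-13512275), which encodes nidogen-1, the linker between laminin and collagen IV, measured 18.3, 17.8 and 17.9 RPKM in the Con-sa mice and 13.5, 15.7 and 15.1 in the B-sa mice. In B+Con-FMT it measured 11.6, 12.6 and 13.8 RPKM, and in B+A10-FMT 19.5, 20.1 and 19.3. The lowest B+A10-FMT mouse was above the highest mouse of every other group. In a bulk sample, fewer cells of a type and less RNA per cell cannot be told apart. The difference on the log2 scale was -0.27 ± 0.07 (SE, n = 3 mice a group) in B-sa against Con-sa (adjusted p = 0.0227), -0.47 ± 0.07 in B+Con-FMT against Con-sa (adjusted p = 0.00285), 0.39 ± 0.07 in B+A10-FMT against B-sa (adjusted p = 0.0101) and 0.59 ± 0.07 of B+A10-FMT over B+Con-FMT (adjusted p = 0.000631). Leaving out B+A10-FMT mouse 2 brought the adjusted p against B-sa to 0.0531, and the fall in B-sa was no longer called without Con-sa mouse 1, 2 or 3 (adjusted p = 0.0695, 0.0581 and 0.0553) or without B-sa mouse 1 (adjusted p = 0.0517).

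Collagen IV alpha chains followed the same order of groups. Col4a1 measured 28.5, 28.3 and 29.0 RPKM in Con-sa, 22.2, 25.4 and 22.0 in B-sa, 19.4, 22.1 and 26.0 in B+Con-FMT, and 31.7, 34.3 and 29.6 in B+A10-FMT. Its partner Col4a2 measured 19.2, 18.1 and 19.2 RPKM in Con-sa, 15.4, 16.4 and 14.8 in B-sa, 13.0, 14.2 and 16.4 in B+Con-FMT, and 19.4, 21.6 and 18.8 in B+A10-FMT. Both chains were lower in every B-sa and B+Con-FMT mouse than in every Con-sa mouse, and B+Con-FMT mouse 3 was the highest of its group for each. Against Con-sa, the log2 fold changes of Col4a1 and Col4a2 were -0.29 ± 0.09 and -0.26 ± 0.08 in B-sa (adjusted p = 0.0477 and 0.0439) and -0.34 ± 0.09 and -0.36 ± 0.08 in B+Con-FMT (adjusted p = 0.0378 and 0.0195). B+A10-FMT was higher than B-sa by 0.44 ± 0.09 and 0.34 ± 0.08 (adjusted p = 0.0201 and 0.0314), and than B+Con-FMT by 0.49 ± 0.09 and 0.43 ± 0.08 (adjusted p = 0.00866 for each). Without B+A10-FMT mouse 2, the adjusted p of Col4a1 was 0.0896 against B-sa and 0.0506 against B+Con-FMT. The rise of Col4a1 over B+Con-FMT held in 5 of the 6 fits without 1 mouse and in all 10 other settings, and that of Col4a2 in all 6 and all 10. Over B-sa the calls of Col4a1 and Col4a2 held in 3 and 2 of 6 such fits and in 8 and 3 of 10 other settings. The falls in B+Con-FMT held in 1 and 2 of 6 fits and in 4 and 9 of 10 settings, and the busulfan calls in 0 of 6 fits for both and in 3 and 4 of 10 settings.

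The pair lies head to head on chromosome 8 in the mm10 assembly that the submitters' processing notes name. RefSeq on GRCm38.p6 places Col4a1 at chr8:11198423-11312889 on the minus strand and Col4a2 at chr8:11312805-11449287 on the plus strand, so that the 2 genes overlap by 85 bases at their starts. Transcribed sequence fills the windows before both starts, and no promoter of the pair is printed.

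The window before the start was found in the RefSeq promoter table for 29 of the 43 members. The sequences of 5 are given, because Nid1 and Bgn rose and Col6a2 fell in B+A10-FMT relative to B-sa, while the fibrillar collagen gene Col3a1 and the smooth and striated muscle filament gene Des were called in no comparison. Each runs 5′ to 3′ over up to 250 bases and ends at the base before the annotated start, except that of Nid1, which stops 51 bases earlier, before an annotated exon. Capitals mark the letters TATAAA of a TATA box, CCAAT of a CCAAT box or GGGCGG of a GC box on either strand.
Nid1 (chr13:13437352-13437550, plus strand): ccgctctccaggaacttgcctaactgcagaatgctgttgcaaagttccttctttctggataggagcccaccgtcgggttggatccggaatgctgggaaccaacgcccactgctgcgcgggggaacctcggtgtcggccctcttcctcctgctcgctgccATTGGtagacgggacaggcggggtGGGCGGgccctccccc
Bgn (chrX:73483351-73483600, plus strand): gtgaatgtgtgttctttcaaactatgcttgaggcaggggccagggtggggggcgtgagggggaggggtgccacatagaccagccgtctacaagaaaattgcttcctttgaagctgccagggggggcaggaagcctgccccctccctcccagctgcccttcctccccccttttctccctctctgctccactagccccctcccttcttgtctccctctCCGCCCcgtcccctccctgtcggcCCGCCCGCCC
Col6a2 (chr10:76623631-76623880, minus strand): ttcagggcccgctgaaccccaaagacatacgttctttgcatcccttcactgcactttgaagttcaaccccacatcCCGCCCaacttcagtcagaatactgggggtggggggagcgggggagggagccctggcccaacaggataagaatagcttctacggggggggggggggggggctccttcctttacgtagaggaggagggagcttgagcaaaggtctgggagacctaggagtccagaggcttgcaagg
Col3a1 (chr1:45311288-45311537, plus strand): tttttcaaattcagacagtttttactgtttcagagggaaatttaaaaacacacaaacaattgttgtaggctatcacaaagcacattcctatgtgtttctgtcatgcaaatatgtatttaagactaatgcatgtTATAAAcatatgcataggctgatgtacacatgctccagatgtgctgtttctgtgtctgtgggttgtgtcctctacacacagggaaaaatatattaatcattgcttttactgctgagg
Des (chr1:75360042-75360291, plus strand): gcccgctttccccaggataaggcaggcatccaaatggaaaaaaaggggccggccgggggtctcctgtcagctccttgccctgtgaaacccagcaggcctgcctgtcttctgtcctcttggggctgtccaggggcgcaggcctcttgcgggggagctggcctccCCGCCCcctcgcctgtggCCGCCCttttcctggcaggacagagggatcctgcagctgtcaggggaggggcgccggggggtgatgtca
Nid1 holds 1 CCAAT box and 1 GC box and Bgn 3 GC boxes, of which the last pair overlap. Des holds 2 GC boxes, Col6a2 1 GC box and Col3a1 1 TATA box. Among all 32851 windows of 250 bases in the table, 32.7% hold a GC box, 33.8% a CCAAT box, 12.4% a TATA box and 1.47% a CArG box, a site bound by serum response factor. Of the 33 windows of the 29 members, some of which have more than 1, 17, 9, 5 and 1 do so, and the one with a CArG box is that of Lama2. A match describes these letters only.

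Of the other basement membrane genes, Nid2, the second nidogen, measured 3.05, 3.03 and 3.01 RPKM in Con-sa, 2.32, 3.35 and 3.80 in B-sa, 2.16, 2.30 and 2.81 in B+Con-FMT and 3.50, 3.77 and 3.45 in B+A10-FMT. It rose in B+A10-FMT relative to B+Con-FMT by 0.42 ± 0.12 on the log2 scale (adjusted p = 0.0427), and the call held in 1 of the 6 fits without 1 mouse and in 5 of 10 other settings. Unlike Nid1, it was spread widely among the B-sa mice. Without B+Con-FMT mouse 3, Lama2 and Lamb2 passed the test for a rise in B+A10-FMT over B+Con-FMT (adjusted p = 0.0275 and 0.0258), and without B-sa mouse 1 Nid2 passed it for a fall in B+Con-FMT below B-sa (-0.42, adjusted p = 0.0369). With equal totals outside the globin genes, Lama2, Lamb2 and Hspg2 were called for the same rise (0.43, 0.31 and 0.29, adjusted p = 0.0328, 0.0291 and 0.0433), and Lamc1 and Hspg2 for a fall in B+Con-FMT below Con-sa (-0.24 and -0.31, adjusted p = 0.0351 and 0.0417). Without B+Con-FMT mouse 1, Lama4 was called for a fall in B+Con-FMT below Con-sa (-0.45, adjusted p = 0.0426). With all mice and the deposited scaling, the laminin chains Lama2, Lama4, Lamb1, Lamb2 and Lamc1, the perlecan gene Hspg2 and Col18a1, the source of endostatin, were called in no comparison, at levels of 0.840 RPKM (Lama4) to 8.23 RPKM (Lamb2). In B+A10-FMT against B+Con-FMT, 10 of the 12 tested basement membrane members were above 0 and 2 below, and their median was 0.25 on the log2 scale, while in B+Con-FMT against Con-sa 1 was above and 11 below, with a median of -0.26.

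**Figure D3:**
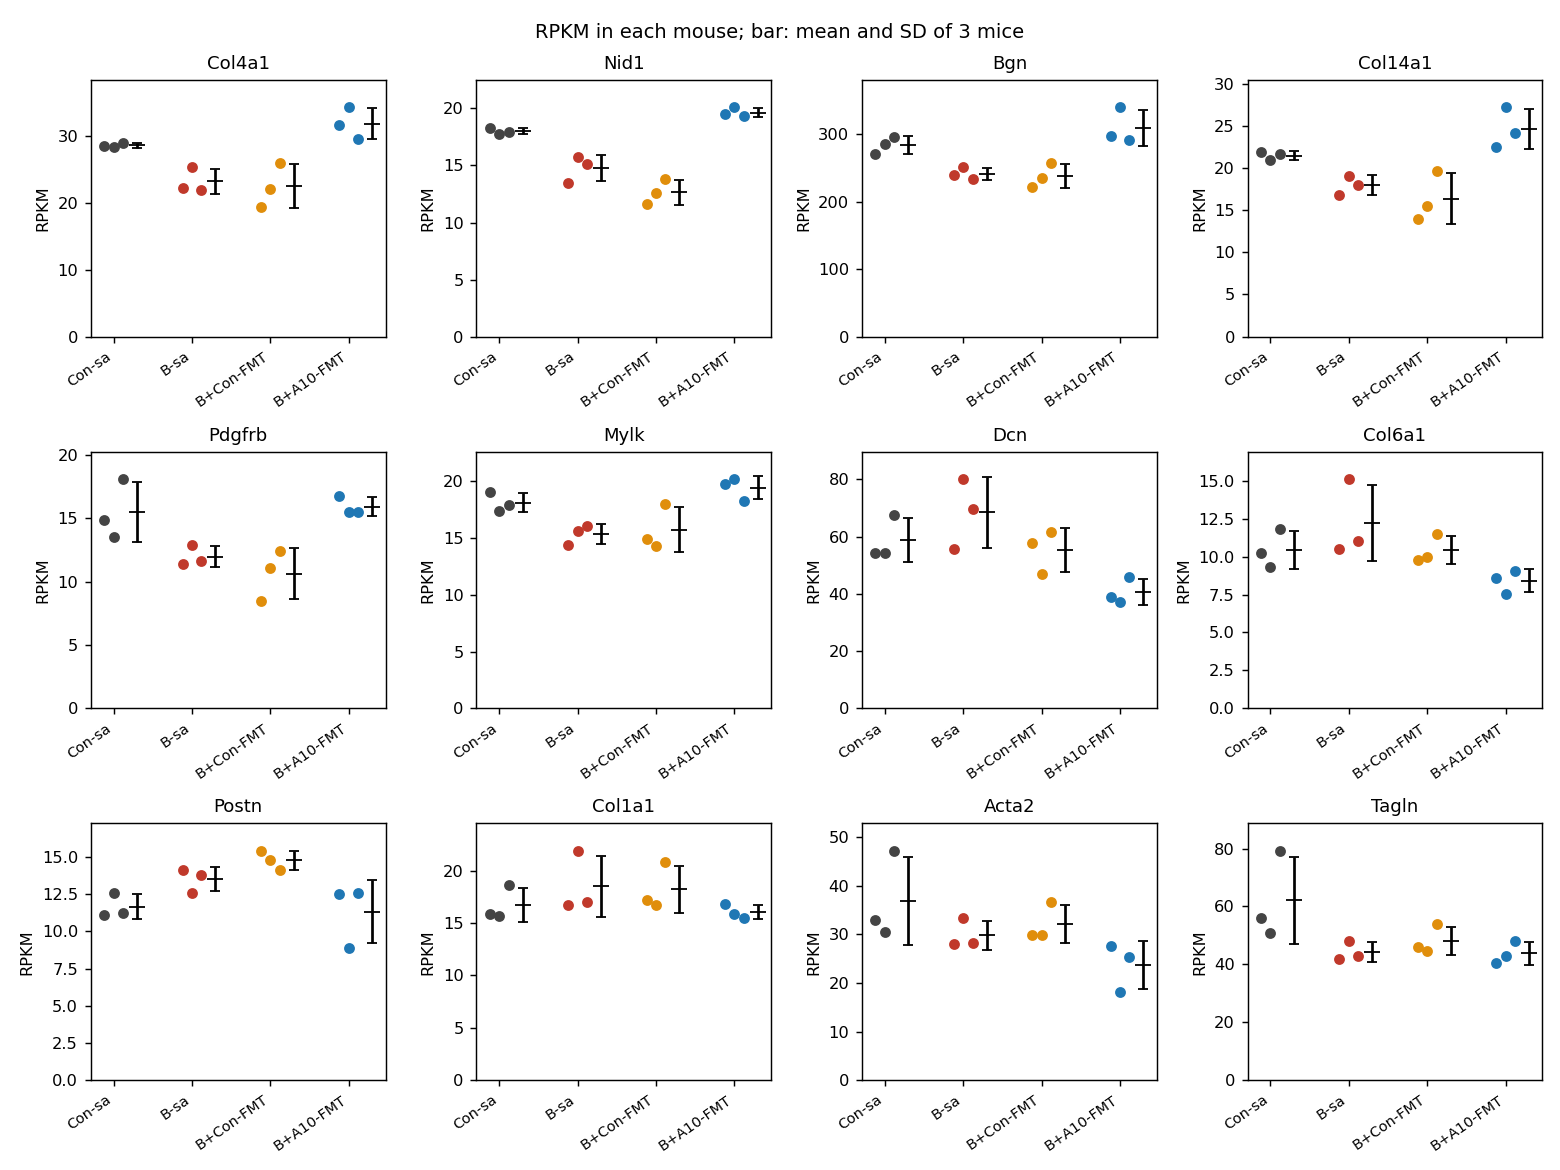
RPKM (vertical axes, from 0) of 12 members in each mouse of the 4 groups, with the mean and SD of the 3 mice as a bar beside the points. Nid1 and Bgn lie at 19.3 to 20.1 and 291 to 340 RPKM in B+A10-FMT, above all B-sa and B+Con-FMT mice, whereas Col1a1 overlaps between all groups and Acta2 and Tagln have their highest value in Con-sa mouse 3.

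Biglycan and SPARC were the most abundant members per length of transcript. Bgn (chrX:73483601-73495936), a small leucine-rich proteoglycan, measured 270, 285 and 296 RPKM in Con-sa, 240, 251 and 233 in B-sa, 222, 235 and 257 in B+Con-FMT and 298, 340 and 291 in B+A10-FMT. Its difference on the log2 scale was -0.23 ± 0.07 in B-sa against Con-sa (adjusted p = 0.0437), -0.25 ± 0.07 in B+Con-FMT against Con-sa (adjusted p = 0.0424), 0.36 ± 0.07 in B+A10-FMT against B-sa (adjusted p = 0.0166) and 0.38 ± 0.07 of B+A10-FMT over B+Con-FMT (adjusted p = 0.00866). The last call held in all 10 other settings. That of B+A10-FMT over B-sa was lost without B+A10-FMT mouse 2 (adjusted p = 0.0797) and in a fit of the 2 groups alone (adjusted p = 0.0547). The 2 calls against Con-sa held in 0 and 1 of the 6 fits without 1 mouse and in 5 and 6 of the 10 other settings. Sparc, which encodes a matricellular protein that binds collagen, measured 184 to 200 RPKM in the Con-sa mice, 170 to 179 in the B-sa mice, 156 to 168 in the B+Con-FMT mice and 193 to 200 in the B+A10-FMT mice. It fell in B+Con-FMT relative to Con-sa (-0.24 ± 0.05, adjusted p = 0.0158) and rose in B+A10-FMT relative to B+Con-FMT (0.30 ± 0.05, adjusted p = 0.00706). The first of these was lost without Con-sa mouse 3 (adjusted p = 0.0505) and without B+Con-FMT mouse 1 or 2 (adjusted p = 0.0603 and 0.0562).

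Collagen XIV is a fibril-associated collagen. Col14a1 measured 21.9, 20.9 and 21.6 RPKM in Con-sa, 16.8, 19.1 and 18.0 in B-sa, 13.9, 15.5 and 19.7 in B+Con-FMT and 22.5, 27.2 and 24.1 in B+A10-FMT. Every B+A10-FMT mouse was above every mouse of the other groups. The log2 fold change was 0.57 ± 0.10 of B+A10-FMT over B+Con-FMT (adjusted p = 0.00866), 0.43 ± 0.10 in B+A10-FMT against B-sa (adjusted p = 0.0361) and -0.39 ± 0.10 in B+Con-FMT against Con-sa (adjusted p = 0.0397), while B-sa against Con-sa gave -0.24 ± 0.10 without a call (adjusted p = 0.127). The first held with any 1 mouse left out and in all 10 other settings. The second held in 0 and the third in 1 of the 6 fits without 1 mouse, with the adjusted p of the second at 0.132 without B+A10-FMT mouse 2. In the 10 other settings the second held in 5 and the third in 4.

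Among the glycoproteins, Fn1, which encodes fibronectin, measured 21.0, 20.9 and 23.8 RPKM in Con-sa, 23.4, 27.3 and 24.6 in B-sa, 19.1, 19.4 and 26.1 in B+Con-FMT and 26.1, 29.2 and 28.9 in B+A10-FMT. To the digits shown, B+Con-FMT mouse 3 was level with the lowest B+A10-FMT mouse. Fn1 rose in B+A10-FMT relative to B+Con-FMT (0.38 ± 0.10, adjusted p = 0.0403), and the call held in 2 of 6 fits without 1 mouse and 4 of 10 other settings. In B+A10-FMT against Con-sa the log2 fold change was 0.35 ± 0.10 (adjusted p = 0.202). Fbn1, the fibrillin-1 gene of microfibrils, measured 3.44 to 3.51 RPKM in the Con-sa mice, 2.80 to 3.40 in the B-sa mice, 2.38 to 3.13 in the B+Con-FMT mice and 3.58 to 3.96 in the B+A10-FMT mice. It rose in the last group relative to B+Con-FMT (0.37 ± 0.09, adjusted p = 0.0259), and the call held in 2 of 6 fits without 1 mouse and 6 of the 9 other settings that tested it. Fbn1 was called lower in B+Con-FMT than in Con-sa only with equal totals outside the globin genes (-0.32, adjusted p = 0.0311) and without B+Con-FMT mouse 3 (-0.37, adjusted p = 0.0381). Eln, the gene of elastin in trabeculae and arterial walls, measured 11.1, 7.82 and 15.3 RPKM in Con-sa, 11.5, 13.9 and 9.11 in B-sa, 10.5, 10.4 and 12.6 in B+Con-FMT and 10.1, 8.30 and 9.80 in B+A10-FMT. The spread of Eln in Con-sa alone covered all other mice, and its adjusted p was 0.474 to 0.981 over the comparisons.

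Periostin moved the other way. Postn, a matricellular gene of fibroblasts, measured 11.1, 12.6 and 11.2 RPKM in Con-sa, 14.1, 12.6 and 13.8 in B-sa, 15.4, 14.8 and 14.1 in B+Con-FMT and 12.5, 8.86 and 12.6 in B+A10-FMT. It fell in B+A10-FMT relative to B+Con-FMT (-0.37 ± 0.11, adjusted p = 0.0454). The B+A10-FMT mean was drawn down by mouse 2, without which the log2 fold change was -0.21 (adjusted p = 0.138), and the call was also lost without any of B+Con-FMT mice 1, 2 and 3 (adjusted p = 0.136, 0.111 and 0.0624). Vtn, the vitronectin gene, had the highest ratio of its highest to its lowest mouse among the members, at 0.0800 to 5.67 RPKM, with log2 fold changes down to -1.50 and no call, although without Con-sa mouse 2 the B-sa mice were called lower than the Con-sa mice (-1.40, adjusted p = 0.0411), and in a fit of the 2 groups alone Vtn was called for a fall of B+A10-FMT below B+Con-FMT (-0.83, adjusted p = 0.0492).

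The genes of decorin, of the first and second collagen VI chains and of collagen XV, which lies in basement membrane zones, fell in B+A10-FMT relative to B-sa. Dcn measured 54.4, 54.2 and 67.7 RPKM in Con-sa, 55.7, 80.1 and 69.5 in B-sa, 57.6, 46.8 and 61.6 in B+Con-FMT and 38.8, 37.2 and 45.9 in B+A10-FMT. All B+A10-FMT mice were below every mouse of the other groups, and B-sa mouse 2 was the highest of all. The log2 fold change in B+A10-FMT against B-sa was -0.73 ± 0.15 (adjusted p = 0.0222), and it was -0.61 (adjusted p = 0.0825) without B-sa mouse 2, -0.71 (adjusted p = 0.0543) without B-sa mouse 3, and -0.70 and -0.67 (adjusted p = 0.0627 and 0.0909) without B+A10-FMT mouse 1 or 2. Lum, the lumican gene that lies next to Dcn on chromosome 10 at a distance of 47337 bases, measured 0.680 to 2.95 RPKM with its highest value also in B-sa mouse 2, and was called in no comparison.

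Col6a1 measured 10.2, 9.28 and 11.8 RPKM in Con-sa, 10.5, 15.1 and 11.0 in B-sa, 9.78, 9.99 and 11.5 in B+Con-FMT and 8.58, 7.56 and 9.06 in B+A10-FMT. Col6a2, the next member on the same chromosome, measured 6.25, 5.91 and 8.27 RPKM in Con-sa, 7.03, 9.94 and 7.46 in B-sa, 5.41, 5.32 and 6.92 in B+Con-FMT and 4.96, 5.10 and 5.68 in B+A10-FMT. For both, B-sa mouse 2 was the highest of the 12 mice. Their log2 fold changes in B+A10-FMT against B-sa were -0.48 ± 0.12 (adjusted p = 0.046) and -0.54 ± 0.14 (adjusted p = 0.0421), and -0.32 and -0.40 (adjusted p = 0.146 and 0.151) without B-sa mouse 2. Col6a3, the third chain, measured 1.71 to 2.72 RPKM and was not called (-0.05 ± 0.11 in B+A10-FMT against B-sa, adjusted p = 0.826). Col15a1, near the limit of the filter, measured 0.950, 0.880 and 1.50 RPKM in Con-sa, 1.17, 1.99 and 1.57 in B-sa, 0.910, 0.950 and 1.08 in B+Con-FMT and 0.650, 0.710 and 0.940 in B+A10-FMT. It fell in B+A10-FMT relative to B-sa by 0.54 ± 0.14 on the log2 scale (adjusted p = 0.0431), with an adjusted p of 0.166 without B-sa mouse 2. Outside B-sa, Col15a1 reached 1 RPKM only in Con-sa mouse 3 and B+Con-FMT mouse 3. It therefore passed the filter only through the B-sa mice, the group it is compared with, and its call is not separate support for a fall. The calls of Col6a1, Col6a2 and Col15a1 each held in 1 of 6 fits without 1 mouse.

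Marker genes of adipocytes and mesothelium were measured beside these 4 genes. Summed over 6 adipocyte markers, of which 5 passed the filter, the level was 115 to 219 RPKM in the Con-sa mice, 120 to 291 in the B-sa mice, 37.8 to 113 in the B+Con-FMT mice and 65.2 to 78.1 in the B+A10-FMT mice, with the highest value in B-sa mouse 2. None of the 5 was called in B+A10-FMT against B-sa in limma, with all 5 at an unadjusted p under 0.05 and the median of their log2 fold changes at -1.37. Their median was -1.24 in B+Con-FMT against B-sa, again with none called in limma and 4 at an unadjusted p under 0.05, and 0.07 in B+A10-FMT against B+Con-FMT. The log2 fold changes of Dcn, Col6a1, Col6a2 and Col15a1 in B+Con-FMT against B-sa were -0.29, -0.19, -0.40 and -0.37, also not called (adjusted p = 0.315, 0.439, 0.154 and 0.193). The adipocyte hormone gene Adipoq measured 21.7 RPKM in B-sa mouse 2 and 4.55 to 5.62 in B+A10-FMT. Summed over 8 mesothelial markers, genes of the cells that cover the spleen capsule, the level was 17.0 to 23.2 RPKM in the Con-sa mice, 21.3 to 33.4 in the B-sa mice, 15.8 to 21.3 in the B+Con-FMT mice and 13.4 to 20.0 in the B+A10-FMT mice. Of the 7 that passed the filter, 3 (Upk1b, Lrrn4 and Krt19) fell in B+A10-FMT relative to B-sa. All 7 were lower there at an unadjusted p under 0.05 in limma, with a median log2 fold change of -0.61. In B+Con-FMT against B-sa the median of the 7 was -0.51, with none called in limma, 4 at an unadjusted p under 0.05 and 2 above 0. In B-sa against Con-sa it was 0.32, with 1 called higher and 4 at an unadjusted p under 0.05. No marker of either list was at 0 in any mouse. Their part in the fall of Dcn, Col6a1, Col6a2 and Col15a1 was not tested.

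**Figure D4:**
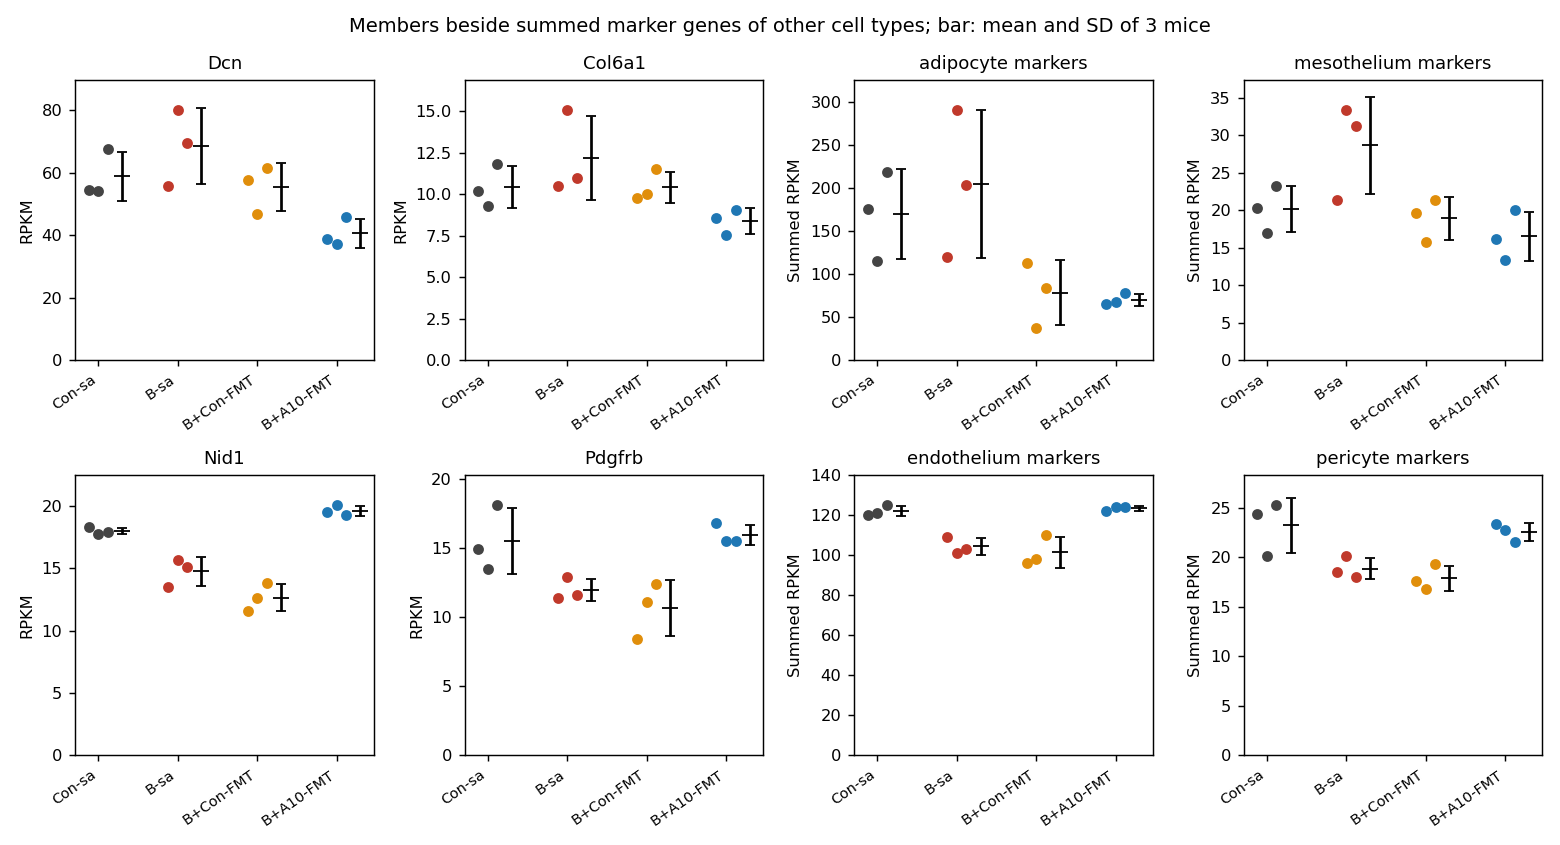
Upper row, RPKM of Dcn and Col6a1 and the summed RPKM of adipocyte and mesothelial markers, and lower row, RPKM of Nid1 and Pdgfrb and the summed RPKM of endothelial and pericyte markers, in each mouse with the mean and SD of the 3 mice of a group. B-sa mouse 2 is highest for Dcn, Col6a1 and both marker sums of the upper row, and in the lower row the B+A10-FMT mice lie above every mouse given busulfan with saline or control content in all 4 panels.

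The receptors for platelet-derived growth factor, which mark fibroblasts and mural cells, were the mesenchymal members. Pdgfra measured 5.40, 5.50 and 5.91 RPKM in Con-sa, 4.51, 4.44 and 4.32 in B-sa, 3.75, 4.18 and 4.83 in B+Con-FMT and 4.84, 5.24 and 5.44 in B+A10-FMT. It fell relative to Con-sa in B-sa (-0.28 ± 0.08, adjusted p = 0.0364) and in B+Con-FMT (-0.33 ± 0.08, adjusted p = 0.0272), each held in 1 of 6 fits without 1 mouse. In B+A10-FMT its log2 fold change was 0.19 ± 0.08 over B-sa (adjusted p = 0.181) and 0.24 ± 0.08 over B+Con-FMT (adjusted p = 0.0775). The latter was called with equal totals outside the globin genes (0.28, adjusted p = 0.0276) and without B+Con-FMT mouse 3 (0.31, adjusted p = 0.0335). Pdgfrb measured 14.9, 13.5 and 18.1 RPKM in Con-sa, 11.4, 12.9 and 11.6 in B-sa, 8.44, 11.1 and 12.4 in B+Con-FMT and 16.8, 15.5 and 15.5 in B+A10-FMT. It fell in B+Con-FMT relative to Con-sa (-0.51 ± 0.12, adjusted p = 0.0258) and rose in B+A10-FMT relative to B+Con-FMT (0.56 ± 0.12, adjusted p = 0.0174). The rise was lost without B+A10-FMT mouse 2 (adjusted p = 0.0608) or B+Con-FMT mouse 1 (adjusted p = 0.06), and the fall held in 2 of 6 fits without 1 mouse. Against B-sa the B+A10-FMT mice were all higher, with a log2 fold change of 0.38 ± 0.12 (adjusted p = 0.0801, and 0.0454 in a fit of the 2 groups alone), and B-sa against Con-sa gave -0.34 ± 0.12 (adjusted p = 0.0791).

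Endothelial and pericyte markers were measured beside the basement membrane and mesenchymal genes, and some of them changed in the same comparisons. The sum of 8 endothelial markers was 120 to 125 RPKM in the Con-sa mice, 101 to 109 in the B-sa mice, 95.8 to 110 in the B+Con-FMT mice and 122 to 124 in the B+A10-FMT mice. Of these, 2 fell in B-sa and 5 in B+Con-FMT relative to Con-sa, and 3 rose in B+A10-FMT relative to B-sa and 5 relative to B+Con-FMT, while Emcn, Egfl7 and Esam were called in none of these. Stab2, a scavenger receptor of sinus endothelium, had group means of 15.2 RPKM in Con-sa and 15.6 in B+A10-FMT, and of 10.5 in B-sa and 10.6 in B+Con-FMT. The sum of 7 pericyte markers was 20.1 to 25.3 RPKM in the Con-sa mice, 18.0 to 20.1 in the B-sa mice, 16.8 to 19.3 in the B+Con-FMT mice and 21.6 to 23.4 in the B+A10-FMT mice. Of its 5 tested genes, 3 (Notch3, Kcnj8 and Abcc9) fell in B-sa and in B+Con-FMT relative to Con-sa, and Rgs5 alone fell in B+A10-FMT relative to B-sa, where Kcnj8 and Abcc9 rose. Relative to B+Con-FMT, Notch3, Kcnj8 and Abcc9 rose in B+A10-FMT (0.40, 0.53 and 0.41, adjusted p = 0.0272, 0.0155 and 0.0156). Rgs5 had a mean of 2.81 RPKM in the Con-sa mice, 3.55 in the B-sa mice, 3.25 in the B+Con-FMT mice and 2.38 in the B+A10-FMT mice. Cspg4 and Higd1b did not pass the filter, and Higd1b was at 0 in some mice. Red pulp macrophage markers also rose in B+A10-FMT, 2 of 5 relative to B-sa and 4 of 5 relative to B+Con-FMT. Of 7 white pulp stroma markers, such as Ccl19 and Cxcl13 of reticular cells, none was called in limma between the 3 busulfan groups, with 0 or 1 at an unadjusted p under 0.05 in each. Against Con-sa, Cxcl13 rose in B+Con-FMT (0.49 ± 0.13, adjusted p = 0.0476), and 2 of the 7 had an unadjusted p under 0.05 in B-sa and 2 in B+Con-FMT, all with higher levels than in Con-sa. The part of these cell types in the results for matrix genes was not tested.

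Fibrillar collagens were the only gene group of the members without a call. Col1a1 and Col3a1, like Dcn and Col6a1, had their highest value in B-sa mouse 2 and their lowest mean in B+A10-FMT. Whether fibrillar collagens differ from the other groups was not tested. Col1a1, which encodes the main chain of collagen I, measured 15.9, 15.7 and 18.6 RPKM in Con-sa, 16.7, 21.9 and 17.0 in B-sa, 17.2, 16.7 and 20.8 in B+Con-FMT and 16.8, 15.9 and 15.5 in B+A10-FMT. Col1a2, the second chain, measured 39.2, 37.0 and 43.6 RPKM in Con-sa, 36.4, 41.8 and 35.8 in B-sa, 37.2, 37.0 and 41.4 in B+Con-FMT and 36.8, 37.4 and 38.6 in B+A10-FMT. For both genes the groups overlapped, and the highest mouse was B-sa mouse 2 for Col1a1 and Con-sa mouse 3 for Col1a2. Col3a1, the collagen of reticular fibres, measured 30.0, 26.1 and 34.2 RPKM in Con-sa, 25.4, 40.6 and 33.4 in B-sa, 26.8, 24.9 and 34.6 in B+Con-FMT and 25.3, 24.2 and 27.8 in B+A10-FMT. Limma called 0 of the 5 fibrillar collagens in each of the 6 comparisons, and 0 were at an unadjusted p under 0.05. The B+A10-FMT against B-sa log2 fold changes were -0.19 ± 0.11 for Col1a1 (adjusted p = 0.294), -0.01 ± 0.07 for Col1a2 (adjusted p = 0.943) and -0.33 ± 0.17 for Col3a1 (adjusted p = 0.254). The SE of Col3a1 leaves changes of a size like those of Nid1 undetected, while that of Col1a2 equals that of Nid1. Col5a1 and Col5a2, which start collagen fibrils, measured 4.30 to 7.95 and 4.28 to 5.44 RPKM. Col5a2 lies 24624 bases from Col3a1 on chromosome 1.

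The SE of the contractile members was 0.08 (Mylk) to 0.31 (Cnn1) on the log2 scale. Acta2 (chr19:34240336-34255585), the smooth muscle alpha actin gene, measured 32.9, 30.5 and 47.2 RPKM in Con-sa, 28.1, 33.3 and 28.2 in B-sa, 29.8, 29.9 and 36.7 in B+Con-FMT and 27.6, 18.2 and 25.4 in B+A10-FMT. All B+A10-FMT mice were below all mice of the other groups, and Con-sa mouse 3 was the highest of 12. The log2 fold change was -0.61 ± 0.18 in B+A10-FMT against Con-sa (adjusted p = 0.219), -0.34 ± 0.18 against B-sa (adjusted p = 0.285) and -0.44 ± 0.18 against B+Con-FMT (adjusted p = 0.146). Actg2, the gamma actin of smooth muscle, whose transcript is close enough to Acta2 that the mapping may have split reads between them, measured 3.73, 3.41 and 7.15 RPKM in Con-sa, 3.34, 5.06 and 3.67 in B-sa, 4.64, 3.51 and 5.85 in B+Con-FMT and 2.88, 2.22 and 3.25 in B+A10-FMT. Its log2 fold change of -0.57 ± 0.24 in B+A10-FMT against B+Con-FMT did not pass (adjusted p = 0.138).

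Myh11, the smooth muscle myosin heavy chain gene, measured 8.34, 6.17 and 10.4 RPKM in Con-sa, 6.48, 7.44 and 6.21 in B-sa, 7.27, 7.57 and 8.52 in B+Con-FMT and 6.20, 4.47 and 6.39 in B+A10-FMT. B+A10-FMT mouse 2 had the lowest Myh11, Acta2 and Actg2 of all mice. The largest difference of Myh11 was -0.46 ± 0.15 in B+A10-FMT against Con-sa (adjusted p = 0.245), and against B+Con-FMT it was -0.40 ± 0.15 (adjusted p = 0.11). Tagln, the transgelin gene, measured 56.0, 51.0 and 79.2 RPKM in Con-sa, 42.0, 48.1 and 42.8 in B-sa, 45.9, 44.6 and 53.8 in B+Con-FMT and 40.4, 42.8 and 48.1 in B+A10-FMT. Every B-sa and B+A10-FMT mouse was below every Con-sa mouse. The difference on the log2 scale was -0.45 ± 0.14 in B-sa against Con-sa (adjusted p = 0.052) and reached -0.47 ± 0.14 for B+A10-FMT against Con-sa (adjusted p = 0.209). In 5 other settings Tagln was called lower in B-sa, among them the RPKM filter in every mouse (adjusted p = 0.0468), and without Con-sa mouse 2 the adjusted p was 0.0348.

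Des, an intermediate filament gene of smooth muscle and of some stromal cells, measured 26.9, 25.8 and 32.3 RPKM in Con-sa, 25.2, 22.8 and 22.1 in B-sa, 24.7, 27.0 and 30.1 in B+Con-FMT and 24.4, 25.0 and 24.9 in B+A10-FMT. In B-sa against Con-sa its log2 fold change was -0.26 ± 0.09 (adjusted p = 0.0555), and without B-sa mouse 1 it was called (-0.32, adjusted p = 0.0362). Cnn1, the calponin-1 gene, measured 2.48, 1.17 and 4.19 RPKM in Con-sa, 1.46, 2.92 and 3.03 in B-sa, 2.88, 2.27 and 3.53 in B+Con-FMT and 1.90, 1.34 and 2.48 in B+A10-FMT. The Con-sa mice alone spanned its whole range, and its log2 fold changes lay between -0.43 and 0.19 with an SE of 0.31. Tpm2, the beta tropomyosin gene, measured 16.4 to 21.9 RPKM with no call.

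Mylk was the contractile member that passed the test. It encodes myosin light chain kinase, with a short form in smooth muscle and a long form in other cells, endothelium among them. Mylk measured 19.1, 17.4 and 17.9 RPKM in Con-sa, 14.4, 15.6 and 16.1 in B-sa, 14.9, 14.3 and 18.0 in B+Con-FMT and 19.8, 20.2 and 18.3 in B+A10-FMT. All B+A10-FMT mice were above all B-sa and B+Con-FMT mice. It rose in B+A10-FMT relative to B-sa (0.32 ± 0.08, adjusted p = 0.0394) and to B+Con-FMT (0.29 ± 0.08, adjusted p = 0.0392). Each call held in 3 of 10 other settings, and with curated transcripts only the log2 fold changes were 0.43 ± 0.30 and 0.60 ± 0.30 (adjusted p = 0.457 and 0.248). The first was lost in all 6 fits without 1 mouse and the second in 4, with adjusted p of 0.132 and 0.14 without B+A10-FMT mouse 2. Acta2, Myh11, Actg2 and Cnn1 had log2 fold changes below 0 in both of these comparisons.

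Genes that act on the matrix or on smooth muscle were counted as further lists. Of 18 tested genes for collagen processing and crosslinking, 1 (Colgalt1, a collagen galactosyltransferase) fell in B-sa relative to Con-sa, which is 5.56% of the list beside 9.78% of all genes. P4ha1, a subunit of the prolyl hydroxylase that stabilises the collagen helix, measured 13.4 to 15.3 RPKM in the Con-sa mice, 11.9 to 12.4 in the B-sa mice, 20.0 to 23.3 in the B+Con-FMT mice and 14.0 to 18.3 in the B+A10-FMT mice. It was the only gene of that list to rise in B+Con-FMT relative to B-sa (0.80 ± 0.09, adjusted p = 0.00128) and relative to Con-sa (0.56 ± 0.09, adjusted p = 0.00454). It also rose in B+A10-FMT relative to B-sa (0.37 ± 0.09, adjusted p = 0.0336), and it fell in B+A10-FMT relative to B+Con-FMT (-0.42 ± 0.09, adjusted p = 0.0145). Colgalt1 fell in B+Con-FMT relative to Con-sa (-0.37 ± 0.06, adjusted p = 0.00448) and rose in B+A10-FMT relative to B+Con-FMT (0.30 ± 0.06, adjusted p = 0.0107).

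Among 16 tested matrix receptors, 1 fell in B-sa (6.25%, beside 9.78% of all genes) and 3 fell in B+Con-FMT (18.8%, beside 6.57%) relative to Con-sa. In B+A10-FMT 2 rose relative to B-sa (12.5%, beside 4.0%) and 4 relative to B+Con-FMT (25%, beside 7.58%). The dystroglycan gene Dag1, a laminin receptor, measured 14.5 to 14.8 RPKM in the Con-sa mice, 11.2 to 11.8 in the B-sa mice, 11.3 to 12.3 in the B+Con-FMT mice and 14.0 to 14.5 in the B+A10-FMT mice. It fell in B-sa relative to Con-sa (-0.32 ± 0.05, adjusted p = 0.00518) and rose in B+A10-FMT relative to B-sa (0.28 ± 0.05, adjusted p = 0.0142). Itga1 and Itga2, collagen-binding integrin subunits, rose in B+A10-FMT relative to B+Con-FMT by 0.48 ± 0.09 and 0.57 ± 0.11 (adjusted p = 0.00976 and 0.00866), as did Itga9 (0.34 ± 0.10, adjusted p = 0.0451). In B+Con-FMT relative to Con-sa, Itga1 and Itga2 fell by 0.32 and 0.41 on the log2 scale (adjusted p = 0.0482 and 0.0339). None of the 16 fell in a comparison where B+A10-FMT was the first group.

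Of 11 tested turnover genes, 2 inhibitors of metalloproteinases, Timp2 (0.30 ± 0.07, adjusted p = 0.0171) and Timp3 (0.48 ± 0.12, adjusted p = 0.0317), rose in B+A10-FMT relative to B+Con-FMT, and Timp2 and the protease gene Ctsk fell in B+Con-FMT relative to Con-sa. These are 18.2% of the list in each, beside 7.58% and 6.57% of all genes. Of 13 regulators of TGF-beta signalling and smooth muscle, Tgfbr2 (-0.23 ± 0.06, adjusted p = 0.0269) and Mrtfa (-0.25 ± 0.05, adjusted p = 0.0123) fell in B-sa relative to Con-sa, and Mrtfa (0.21 ± 0.05, adjusted p = 0.0432) and Tcf21 (0.55 ± 0.13, adjusted p = 0.038), a transcription factor of splenic mesenchyme, rose in B+A10-FMT relative to B-sa, 15.4% of the list each time, beside 9.78% and 4.0% of all genes. Of 12 further contractile and actin-binding genes, Synpo2 and Flna rose in B+A10-FMT relative to B-sa (0.44 ± 0.08 and 0.18 ± 0.05, adjusted p = 0.00949 and 0.0491), and Synpo2, Cald1 and Flna relative to B+Con-FMT (0.47 ± 0.08, 0.26 ± 0.07 and 0.16 ± 0.05, adjusted p = 0.00447, 0.0275 and 0.0489). These are 16.7% and 25% of the list, beside 4.0% and 7.58% of all genes. The 3 genes are also used outside smooth muscle. No gene of the 5 lists was called in B+A10-FMT against Con-sa, where 1, 2, 2, 1 and 3 were at an unadjusted p under 0.05 in the order processing, turnover, regulators, receptors and contractile.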

How the data were processed

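Spleen RNA-seq of 12 mice was used, 3 in each group of the labels. Per the paper's methods, the authors enriched mRNA with oligo(dT), mapped reads with SOAPaligner to reference genes and computed RPKM (reads normalised to transcript length and to all mapped reads), while the submitters' processing notes name HISAT, Bowtie2 and mm10. The sequencer is also given differently in the 2 sources, and the counting rule for genes with shared sequence is not given in the sources used here. The deposited RPKM, 60654 transcripts in 1 table per mouse, were summed per gene to 18221 genes. The 12671 genes that reached 1 RPKM in 3 or more mice entered the test on log2(RPKM + 1), a pseudocount of 1 that understates changes of low genes, with limma 3.58.1 in R 4.3.3 (trend and robust empirical Bayes, group as the only factor). P-values are two-sided, Benjamini-Hochberg adjusted over all tested genes, and measure the spread between mice.

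The members and the further lists were chosen with earlier results of these data known. Named in full were up to 6 higher and 6 lower called members of largest change per comparison and 13 fixed ones, and from the further lists up to 3 called genes per comparison. Depth was estimated with GENCODE M21 lengths. Alternatives were another pseudocount, filters, scalings, curated transcripts only, removal of length and GC trends (98.5% of tested genes had both), a replicate block, fits of 2 groups, and each mouse left out. Promoter windows and positions are from RefSeq, GRCm38.p6.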

Additional observations from a re-analysis of the deposited data

How the results depend on the processing

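No fold change of the 35 called differences changed sign in any setting, and with a pseudocount of 0.1 all 35 were still called. With 3 mice a group and 13200000 to 14100000 reads a mouse, members under the filter were not tested. Where the spread between mice was wide, changes as large as those called could go undetected. The cause of each change listed here was not tested, and fits of 2 groups alone or with 1 mouse left out also hold fewer mice.

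In B-sa against Con-sa (5 matrix members called), 2 were called with no filter on low values, 2 with median-of-ratios scaling, 1 with curated transcripts only, 2 with a replicate block, 1 with the length and GC trend removed, 1 with that and the replicate block, and 3 in a fit of 2 groups only. Contractile members called there numbered 1 with RPKM of at least 1 in every mouse, 2 with equal totals outside the globin genes, 1 with the replicate block, 1 with the length and GC trend removed and 1 with both, in place of 0. In B+A10-FMT against B-sa (9 matrix members), the count was 4 with no filter, 4 with curated transcripts, 5 with the length and GC trend removed and the replicate block, and 4 in the 2 groups alone, and the matrix median of 0.05 was 0.15 with RPKM of at least 1 in every mouse, -0.06 with the length and GC trend removed and -0.06 with the block added. The single contractile call there and the one over B+Con-FMT each became 0 with no filter, median-of-ratios scaling, curated transcripts, the replicate block, the length and GC trend removed, both, and 2 groups only. In B+A10-FMT against B+Con-FMT (11 matrix members), curated transcripts left 7. In B+Con-FMT against Con-sa (8 matrix members), 5 were called with no filter, 5 with median-of-ratios scaling, 3 with curated transcripts, 4 with the length and GC trend removed and the block, and 5 in the 2 groups alone, of which 4 were lower and 1, Postn, higher (0.32, adjusted p = 0.0288). Postn was also called higher there with the length and GC trend removed (0.38, adjusted p = 0.0416). In the same comparison 1 contractile member was called in place of 0 with the trend removed and the block.

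With 1 mouse left out, called matrix members ranged from 0 to 1 in B-sa against Con-sa, 0 to 1 in B+Con-FMT against B-sa, 0 to 8 in B+A10-FMT against B-sa, 5 to 13 in B+A10-FMT against B+Con-FMT and 1 to 9 in B+Con-FMT against Con-sa. Called contractile members ranged from 0 to 1 in B-sa against Con-sa, stayed at 0 in B+A10-FMT against B-sa, and ranged from 0 to 1 in B+A10-FMT against B+Con-FMT and in B+Con-FMT against Con-sa. The contractile median of B+A10-FMT against Con-sa, -0.35 with all mice beside 0.005 for all genes, ranged from -0.58 to -0.18.

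Mice that share a replicate number did not deviate together (r of -0.37 to 0.3 over 18 pairs, median -0.038, against a median of 0.039 over 36 pairs of other numbers), so the numbers do not pair the mice. With the replicate block, 26 of the 35 differences were still called, and genes called over the whole table numbered 417 in place of 668 in B+A10-FMT against B-sa. With curated transcripts only, counts over all genes were 741 in place of 1838 in B-sa against Con-sa, 25 in place of 107 in B+Con-FMT against B-sa, 203 in place of 668 in B+A10-FMT against B-sa, 546 in place of 1312 in B+A10-FMT against B+Con-FMT, 1 in place of 52 in B+A10-FMT against Con-sa and 382 in place of 1124 in B+Con-FMT against Con-sa. With equal totals outside the globin genes, B+Con-FMT had 180 against B-sa and 1837 against Con-sa, and B+A10-FMT had 2338 against B+Con-FMT. The count of B+Con-FMT against B-sa was 71 with no filter, and that of B+A10-FMT against Con-sa was 29 with RPKM of at least 1 in every mouse. With the length and GC trend removed and the block, the counts were 1166 in B-sa against Con-sa, 614 in B+Con-FMT against Con-sa, and, for B+A10-FMT, 264 against B-sa and 781 against B+Con-FMT. In fits of 2 groups only, 972 genes were called in B-sa against Con-sa, 32 in B+Con-FMT against B-sa and 158 in B+A10-FMT against B-sa.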

Other observations

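Mylk, the one contractile member that was called, is listed as 4 transcripts. The curated transcript NM_139300.3 had mean RPKM of 7.76 ± 1.30 (SD, n = 3) in Con-sa and 8.10 ± 1.10 in B+A10-FMT, and of 5.92 ± 2.03 in B-sa and 5.42 ± 2.63 in B+Con-FMT. The predicted transcript XM_006521703.3 had 4.16 ± 0.680, 4.23 ± 0.755, 5.40 ± 1.19 and 5.86 ± 1.96 in the same order, and XM_006521705.2 had 5.56 ± 1.65, 6.41 ± 0.730, 3.57 ± 1.05 and 3.26 ± 1.09. The fourth, XM_006521702.1, had 0.683 ± 0.685, 0.667 ± 1.15, 0.450 ± 0.390 and 1.21 ± 1.15. Since these transcripts share most of their sequence, how the deposited values divide reads among them is uncertain. The difference between the transcripts was not tested.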
